A study of Rattus norvegicus with 12 samples.

Results

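The measurements concern 9 genes of thrombin signalling, coagulation and plasminogen activation, chosen by their gene symbols with earlier results of these arrays known: F2r, F2rl1, F3, Tfpi, Procr, Thbd, Plat, Plau and Plaur. They are 9 of the 14217 genes that the array annotation names by a probe set of their own, and 14 probe sets (groups of short oligonucleotides that together measure 1 transcript) carry their symbols. RNA was measured on 12 Affymetrix rat expression arrays, from 3 culture plates in each of 4 groups. WB-F344 is a rat liver epithelial cell line, labelled as not tumorigenic and sensitive to rapamycin, with a doubling time of 42 h. WB311 arose spontaneously from WB-F344 in culture and is labelled as tumorigenic and resistant, with a doubling time of 15.5 h. Cells of each line were exposed for 24 hr to the vehicle dimethyl sulfoxide or to 50 nM rapamycin, an inhibitor of the kinase complex mTORC1. Each line is a single cell line, and no label says that the 3 plates of a group came from separate passages, so the p-values measure the spread between plates, which may be technical. In RNA from whole plates, fewer cells expressing a gene and less of its RNA per cell cannot be told apart.

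Coagulation outside the liver's secreted factors begins at the cell surface, where tissue factor (F3) binds factor VII and starts the reactions that make thrombin, and tissue factor pathway inhibitor (Tfpi) blocks that step. Thrombin cleaves and activates protease-activated receptor 1 (F2r), whereas the related receptor F2rl1 is cut by trypsin-like proteases and by the tissue factor complex. Thrombomodulin (Thbd) and the endothelial protein C receptor (Procr) turn thrombin towards activation of the anticoagulant protein C. Tissue-type and urokinase-type plasminogen activators (Plat and Plau) convert plasminogen to plasmin, and the urokinase receptor (Plaur) holds urokinase at the cell surface.

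The 250 bases upstream of the annotated start are shown for F2r, Plaur and Procr, the members whose upstream bases held a match to an AP-1 motif among the 5 members listed in the RefSeq promoter table (F2r, Plaur, Procr, Tfpi and Plau). The sequences are from RefSeq on the GRCr8 assembly, at chr2:28620580-28620829 on the minus strand for F2r, at chr1:89181113-89181362 on the plus strand for Plaur and at chr3:164714477-164714726 on the plus strand for Procr. They are written 5′ to 3′ along the gene, and capitals mark the match to TGANTCA, searched on both strands.
F2r: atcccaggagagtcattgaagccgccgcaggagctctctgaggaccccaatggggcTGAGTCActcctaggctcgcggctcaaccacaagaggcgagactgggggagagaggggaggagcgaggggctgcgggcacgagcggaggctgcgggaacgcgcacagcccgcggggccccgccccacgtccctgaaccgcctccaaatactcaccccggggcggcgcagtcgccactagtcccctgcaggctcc
Plaur: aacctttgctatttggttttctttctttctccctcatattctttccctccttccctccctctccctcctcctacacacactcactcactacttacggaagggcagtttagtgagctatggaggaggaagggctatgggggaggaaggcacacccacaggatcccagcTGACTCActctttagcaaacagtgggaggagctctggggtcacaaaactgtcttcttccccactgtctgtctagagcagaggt
Procr: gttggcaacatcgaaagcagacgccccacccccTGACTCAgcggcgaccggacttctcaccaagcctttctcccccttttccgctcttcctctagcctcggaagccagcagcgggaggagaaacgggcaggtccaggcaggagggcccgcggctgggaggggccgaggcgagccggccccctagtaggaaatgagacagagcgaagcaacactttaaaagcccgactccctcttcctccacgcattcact
The match began 194 bases before the annotated start of F2r, 83 bases before that of Plaur and 217 bases before that of Procr. Of 33469 promoters in the table, 6.34% held such a match in the same window. The Sp1 letters GGGCGG occurred before F2r, Plau and 1 of the 2 listed starts of Tfpi, and in 30.5% of all promoters. Before none of the 5 members did this window hold the cyclic AMP response motif TGACGTCA, which 1.59% of all promoters held, or the EGR motif GCGGGGGCG, which 2.45% held. The amino acid response motif TGATGNAA, held by 3.4%, and the TATA box letters TATAAA, held by 12.9%, were not in their windows either. These are matches of letters only, and no binding was measured.

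The deposited intensities are linear, and the median of all probe sets on an array was between 59.5 and 62.9. To be tested in a comparison, a probe set needed an average of 100 or more in at least 1 group of that comparison. It was called when limma gave an adjusted p (Benjamini-Hochberg) below 0.05 and the groups differed by 1.2-fold or more. Each gene was counted by its brightest probe set, and no intensity is compared here between genes, since probe sets differ in how they bind. The WB-F344 plates numbered 2 stood apart in RNA quality: the 3′ minus 5′ difference of the beta-actin control was 1.04 in the vehicle plate and 0.62 in the rapamycin plate on the log2 scale, against 0.21 to 0.25 in the other 4 WB-F344 plates and 0.38 to 0.49 in WB311. Of 6 hepatocyte markers with a probe set, Ttr alone averaged at least 100 in any group, and the other 5 were under that level in all 4 groups. Of 6 mesenchymal markers, the summed intensity was 22720 to 36260 in WB-F344 plates and 1156 to 1280 in WB311 plates, and that of 5 biliary and progenitor markers was 4933 to 6667 and 252.2 to 345.7. With vehicle, Krt7 and Cd24 of the latter list were called lower in WB311 and Krt19 higher. The part of these marker differences in the differences between the lines given below was not tested. No megakaryocyte and platelet marker (of 4) averaged 100 in any group.

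Of the 14 probe sets, 8 of 7 genes averaged at least 100 in 1 or more groups. The other 6, which included all 3 probe sets of Thbd and both of Plau, lay between 10.5 and 30.4 on all 12 arrays, and were tested in no comparison. Thrombomodulin and urokinase were thus not measured above the threshold in either line, with or without rapamycin. The remaining dim probe set was a second one for Plaur, at 14.9 to 18.6, and it did not follow the bright Plaur probe set described below.

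**Figure D1:**
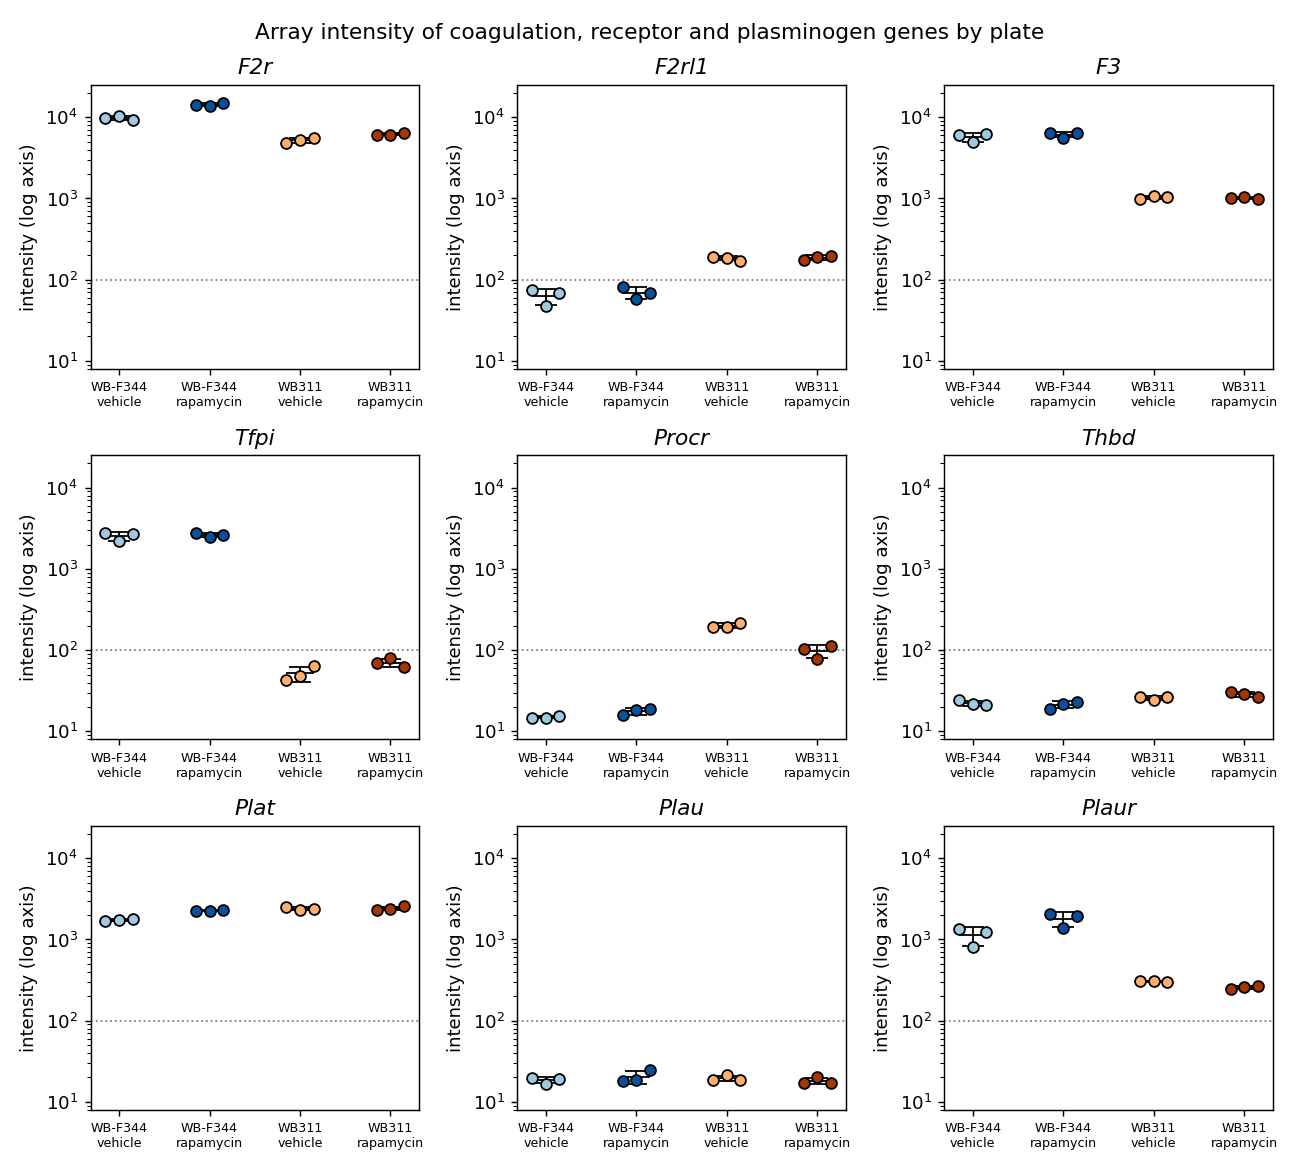
Intensity of the brightest probe set of each of the 9 genes (log axis, arbitrary units) in the 4 groups; points are the 3 plates of a group, bars the mean ± SD, and the dotted line the intensity of 100. F2r, F3, Tfpi and Plaur lay higher in WB-F344, Procr and F2rl1 higher in WB311, and Thbd and Plau stayed under 100 on all 12 arrays.

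Rapamycin raised 3 of the 5 members tested in WB-F344 cells, the thrombin receptor F2r, the urokinase receptor Plaur and the plasminogen activator Plat, and lowered none. In all tested genes 7.81% were called higher and 17.4% lower. The median log2 difference was 0.38 over the 5 members and -0.067 over all 8223 genes tested. With cyclic loess normalization the genes called over the whole array were 943 higher and 1041 lower, compared with 642 higher and 1428 lower as deposited, and with median centring 520 higher and 1640 lower. The same 3 members were called under both. Of the marker lists, the summed mesenchymal intensity in WB-F344 was 29630 to 36260 on vehicle plates and 22720 to 27380 with rapamycin. In that list Col1a1 and Col3a1 were called lower and the other 3 tested were not called, with a median log2 difference of 0.13 over the 5. Of the biliary and progenitor markers Cd24 fell by 0.89 on the log2 scale (limma adjusted p = 0.000235). The summed leukocyte intensity, in which Cd14 alone of 6 markers averaged 100, was 653.5 to 778.5 with vehicle and 1151 to 1405 with rapamycin. The part of these markers in the 3 rises was not tested.

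F2r in WB-F344 cells had intensities of 9802, 10332 and 9144 on vehicle plates and 14205, 13645 and 14775 with rapamycin. All 3 rapamycin plates lay above all 3 vehicle plates. The log2 difference was 0.54 (SE 0.074, limma adjusted p = 0.000277), a 1.46-fold rise, and plates of the same number gave ratios of 1.45, 1.32 and 1.62. The spread behind this p was shared with WB311 plates, which varied less. With the WB-F344 groups alone the limma adjusted p was 0.00904.

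Plat, which encodes tissue-type plasminogen activator, had intensities of 1667, 1752 and 1780 on WB-F344 vehicle plates. With rapamycin they were 2244, 2219 and 2289. The groups did not overlap and each varied little, with an SD of 59.1 and 35.6 (n = 3 each). The rise was 1.30-fold, a log2 difference of 0.38 (SE 0.065, limma adjusted p = 0.00124). With the WB-F344 groups alone the limma adjusted p was 0.0189.

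Plaur had intensities of 1339, 800.2 and 1239 on WB-F344 vehicle plates and 2061, 1370 and 1925 with rapamycin. The plates numbered 2 were the lowest of each group, and the rapamycin plate 2 lay just above the highest vehicle plate. The log2 difference was 0.68 (SE 0.18, limma adjusted p = 0.0157), a 1.60-fold rise, and within plates of the same number the ratio was 1.54, 1.71 and 1.55. The call was lost when the WB-F344 groups were fitted alone (adjusted p = 0.101) or by the methods' t-test (adjusted p = 0.254), and also without rapamycin plate 1 (0.0655) or plate 3 (0.0612). When single plates were left out, the log2 difference was between 0.45, without vehicle plate 2, and 0.86, without rapamycin plate 2. The probe set's suffix marks that its probes may match more than 1 transcript.

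The 2 genes of the initiating step did not pass the test in WB-F344 cells. F3, which encodes tissue factor, had intensities of 5979, 4918 and 6151 with vehicle and 6446, 5572 and 6328 with rapamycin, and the groups overlapped (log2 difference 0.11, 95% interval -0.09 to 0.31, limma adjusted p = 0.418). The brighter Tfpi probe set had intensities of 2769, 2194 and 2686 with vehicle and 2787, 2450 and 2625 with rapamycin. Its log2 difference was 0.05 (95% interval -0.27 to 0.36, limma adjusted p = 0.853). As in Plaur, the lowest plate of each of these groups was the plate numbered 2.

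The second Tfpi probe set differed from the first in WB-F344 cells. It read 376.5, 507.6 and 365.3 with vehicle and 555.9, 513.0 and 510.2 with rapamycin. The groups did not overlap, although vehicle plate 2 came within a few units of the lowest rapamycin plates. The log2 difference was 0.35 (SE 0.14, limma adjusted p = 0.0757) and was not called. It was called with the replicate number as a block within each line (adjusted p = 0.031), without both plates numbered 2 (0.0095) and without vehicle plate 2 alone (0.00735).

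**Figure D2:**
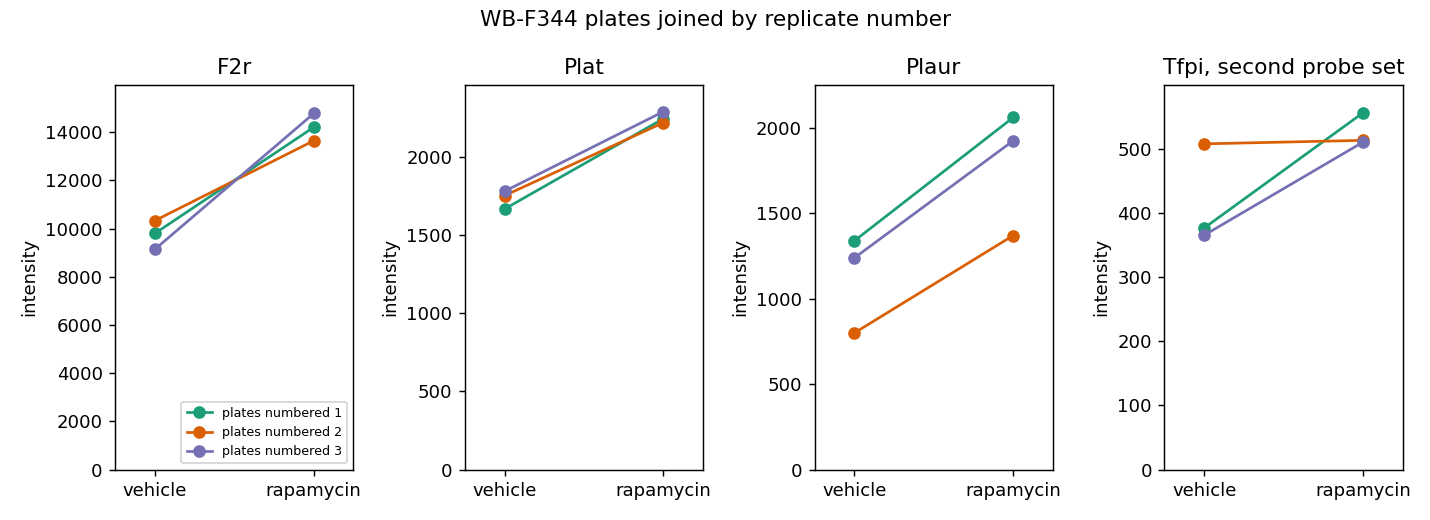
Intensity (arbitrary units, axes from 0) of F2r, Plat, Plaur and the second Tfpi probe set on WB-F344 plates, with lines joining vehicle and rapamycin plates of the same replicate number. All lines rise, those of F2r by ratios of 1.32 to 1.62, and the second Tfpi probe set is almost level for the plates numbered 2.

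F2rl1 and Procr were under 100 in WB-F344 cells and were not tested for rapamycin there. F2rl1 read 73.7, 47.2 and 69.1 with vehicle and 81.7, 57.3 and 69.5 with rapamycin. Procr read 14.7, 14.7 and 15.3 with vehicle and 15.8, 18.1 and 19.0 with rapamycin.

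In WB311 cells the endothelial protein C receptor Procr fell with rapamycin, and none of the other 5 members tested was called. In all 8156 genes tested, 1.70% were called higher and 2.05% lower. Procr intensities were 193.4, 193.6 and 216.2 on vehicle plates and 104.3, 78.7 and 111.9 with rapamycin. The groups did not overlap. Rapamycin plates were at 0.407 to 0.539 of the vehicle plates of the same number, although plates of the same number did not deviate together in WB311. The log2 difference was -1.05 (SE 0.12, limma adjusted p = 0.0013), a 2.07-fold fall and the 4th largest among the tested genes. The rapamycin plates averaged 98.3, just under the threshold of 100, and with that group set to 100 the fall was 2.01-fold.

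F2r in WB311 cells had intensities of 4868, 5266 and 5556 with vehicle and 6013, 6085 and 6336 with rapamycin. All rapamycin plates lay above all vehicle plates, but the log2 difference of 0.23 (95% interval 0.07 to 0.40) had a limma adjusted p of 0.116 and a fold of 1.18, under the threshold of 1.2. Plaur read 309.3, 307.9 and 302.5 with vehicle and 248.2, 257.2 and 269.1 with rapamycin. These groups did not overlap either, with the rapamycin plates the lower ones, and the log2 difference of -0.25 (95% interval -0.64 to 0.14, limma adjusted p = 0.558) was not called. The spread used here is shared by both lines, and WB-F344 plates varied more, with a median SD over probe sets of 0.154 and 0.13 on the log2 scale against 0.0782 and 0.0642 in WB311. With the WB311 groups alone the limma adjusted p for Plaur was 0.0375, at a 1.19-fold difference that stayed under the fold threshold.

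The remaining tested members in WB311 cells had overlapping groups. Plat read 2483, 2307 and 2371 with vehicle and 2317, 2392 and 2547 with rapamycin (log2 difference 0.02, 95% interval -0.12 to 0.16, limma adjusted p = 0.94). F3 read 993, 1062 and 1042 with vehicle and 1022, 1042 and 985.2 with rapamycin (log2 difference -0.02, 95% interval -0.22 to 0.18, limma adjusted p = 0.952). F2rl1 read 192.1, 186.7 and 171.7 with vehicle and 172.6, 191.2 and 198.3 with rapamycin (log2 difference 0.03, 95% interval -0.32 to 0.38, limma adjusted p = 0.963). Both Tfpi probe sets were under 100 on all WB311 plates and were not tested for rapamycin there.

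**Figure D3:**
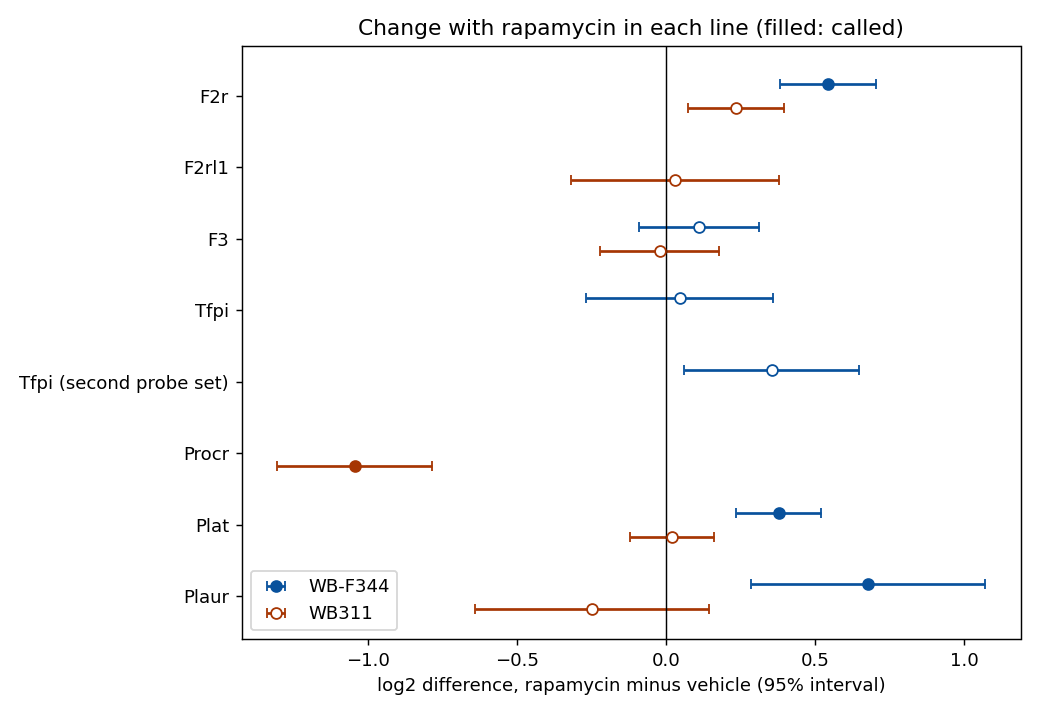
Log2 difference, rapamycin minus vehicle, of the 8 probe sets tested in at least 1 line (blue WB-F344, brown WB311; bars 95% intervals from limma; filled points called, missing points not tested). F2r, Plat and Plaur rose in WB-F344, by 0.54, 0.38 and 0.68, and Procr fell in WB311, by 1.05.

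Whether the response to rapamycin differed between the lines was tested as the difference of the log2 differences, WB311 minus WB-F344. It was called for 3 of 7 members, all lower in WB311, while 3.60% of the 8660 genes tested were called lower and 7.98% higher. Of the 7, Procr, F2rl1 and Tfpi averaged 100 in 1 line alone, so a response in the other line was not tested by itself. For Procr the value of -1.29 (SE 0.17, limma adjusted p = 0.000644) thus rests largely on its fall in WB311, since it lay at 14.7 to 19.0 in WB-F344. For Plaur it was -0.93 (SE 0.25, limma adjusted p = 0.0385), and for Plat -0.36 (SE 0.092, limma adjusted p = 0.0274). These latter calls were close to the threshold: with no filter on intensity the adjusted p was 0.0727 for Plaur and 0.0528 for Plat, and when single plates were left out in turn the call held in 4 of 12 fits for Plaur and 5 of 12 for Plat. For F2r the difference was -0.31 (95% interval -0.54 to -0.08, limma adjusted p = 0.0881), not called, although without both plates numbered 2 of WB-F344 the adjusted p was 0.0313. For F3, F2rl1 and the brighter Tfpi probe set it was -0.13, -0.12 and 0.41 with limma adjusted p of 0.611, 0.823 and 0.254.

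More members were called between the lines than between the treatments, and the same held for all genes tested. With rapamycin 7.81% of all genes were higher and 17.4% lower in WB-F344, and 1.70% and 2.05% in WB311. With vehicle all 7 members tested were called, 4 lower and 3 higher in WB311, against 28.8% lower and 28.0% higher of 8522 genes. With rapamycin 4 were lower and 1 higher of 6 tested, against 27.0% lower and 34.1% higher of 8557 genes. F2rl1 and Tfpi, and with vehicle Procr, passed the filter through 1 line alone, which favours a call between the lines. Both vehicle and rapamycin comparisons below use the same plates as the comparisons above.

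F3 was 5.48-fold lower in WB311 with vehicle (log2 difference -2.45, SE 0.092, limma adjusted p = 2.41e-10). WB-F344 plates read 4918 to 6446 and WB311 plates 985.2 to 1062 over both treatments. Tfpi, the inhibitor of tissue factor, was lower too. Its brighter probe set read 2194 to 2787 on WB-F344 plates and 43.4 to 79.0 on WB311 plates, at least 25.4-fold lower with vehicle when WB311 is set to the threshold of 100 (measured log2 difference -5.63, limma adjusted p = 7.52e-12). The second Tfpi probe set, at 365.3 to 555.9 on WB-F344 plates and 18.7 to 29.0 on WB311 plates, was at least 4.12-fold lower by the same bound (measured log2 difference -4.28, limma adjusted p = 5.41e-11).

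F2r and Plaur were lower in WB311 as well. F2r was 1.87-fold lower with vehicle (log2 difference -0.90, SE 0.074, limma adjusted p = 4.26e-07) and 2.31-fold lower with rapamycin (-1.21, limma adjusted p = 2.23e-08). Plaur was 3.59-fold lower with vehicle (log2 difference -1.84, SE 0.18, limma adjusted p = 2.14e-06) and 6.81-fold lower with rapamycin (-2.77, limma adjusted p = 3.85e-08). On no plate of WB311 did either gene reach the lowest plate of WB-F344.

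Procr and F2rl1 reached an average of 100 in WB311 cells alone. Procr read 14.7 to 15.3 on WB-F344 vehicle plates and 193.4 to 216.2 on WB311 vehicle plates (measured log2 difference 3.75, limma adjusted p = 5.68e-11), at least 2.01-fold higher against the threshold of 100. The rapamycin groups, at 15.8 to 19.0 and 78.7 to 111.9, both averaged under 100 and were not tested. F2rl1 read 47.2 to 81.7 in WB-F344 and 171.7 to 198.3 in WB311 over both treatments, at least 1.83-fold higher in WB311 with vehicle (measured log2 difference 1.56, limma adjusted p = 3.4e-06). Of 6 endothelial markers, none averaged 100 in WB-F344, and in WB311 Tek alone did. The summed intensity of these markers was 127.1 to 167.5 on WB-F344 plates and 1048 to 1304 on WB311 plates, and its part in the Procr difference was not tested.

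Plat was 1.38-fold higher in WB311 with vehicle (log2 difference 0.46, SE 0.065, limma adjusted p = 5.44e-05). With rapamycin the log2 difference was 0.10 (95% interval -0.04 to 0.25, limma adjusted p = 0.184) and was not called, with WB-F344 plates at 2219 to 2289 and WB311 plates at 2317 to 2547. WB-F344 vehicle was thus the lowest of the 4 groups for Plat, and the averages of the other three lay between 2250.5 and 2419.

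**Figure D4:**
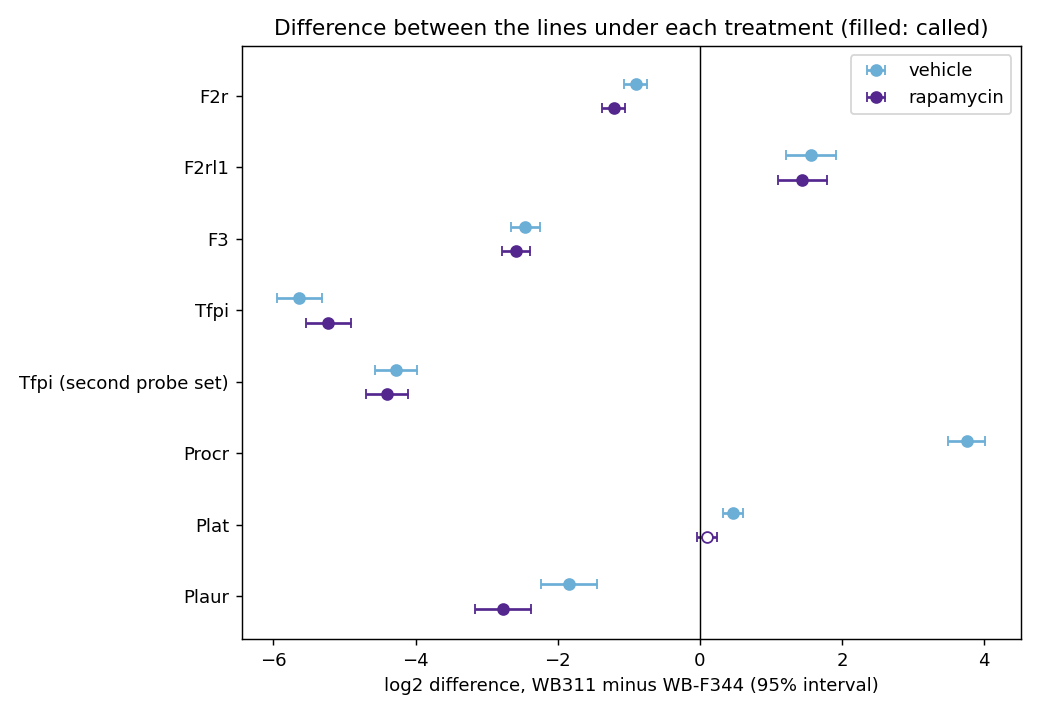
Log2 difference between the lines, WB311 minus WB-F344, with vehicle (light blue) and with rapamycin (purple); bars are 95% intervals from limma, filled points were called and missing points not tested. Tfpi, F3, Plaur and F2r lay below 0 under both treatments and F2rl1 above 0, and Plat was called with vehicle (0.46) but not with rapamycin (0.10).

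Most other coagulation genes were not expressed above the threshold. Of 28 listed genes outside the 9 members, 23 had a probe set and 7 averaged at least 100 in a group compared, namely F8 and F12, the anticoagulant cofactor Pros1, the vitamin K cycle enzymes Ggcx and Vkorc1, and Lman1 and Mcfd2, which carry factor VIII out of the endoplasmic reticulum. None of the 7 was called with rapamycin in either line. Of all genes tested, 7.81% were called higher and 17.4% lower in WB-F344, and 1.70% and 2.05% in WB311. With the replicate number as a block within lines, 2 of them were called in WB-F344, F8 with a log2 difference of 0.34 (limma adjusted p = 0.00715) and Lman1 with -0.30 (0.0149). Between the vehicle groups Pros1 was higher in WB311 (log2 difference 0.77, limma adjusted p = 1.08e-05), and Ggcx (-0.78, 1.61e-06) and Vkorc1 (-1.31, 2.93e-08) were lower. The other 4 of the 7 were not called, beside 28.0% higher and 28.8% lower of all genes tested.

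Of 13 listed genes of the plasminogen system, 12 had a probe set and 6 were tested. Anxa2, which with S100a10 forms a cell surface receptor for plasminogen and Plat, fell with rapamycin in WB-F344 by 0.26 on the log2 scale (SE 0.063, limma adjusted p = 0.00872), from averages of 13830 to 11519, just past the fold threshold. It was not called there with cyclic loess normalization, with only the groups compared (adjusted p = 0.0692), by the methods' t-test (0.052), or in 3 of the 12 fits that left out 1 plate. S100a10 had a log2 difference of -0.25 (limma adjusted p = 0.00609) but a fold of 1.19, under the threshold. None of the 6 was called in WB311. Over all genes tested the shares were 7.81% higher and 17.4% lower in WB-F344, and 1.70% and 2.05% in WB311. With the block within lines, Lrp1, a clearance receptor for plasminogen activator complexes, was also called, at 0.29 in WB-F344 (limma adjusted p = 0.0135) and 0.32 in WB311 (0.0344). Without the block the limma adjusted p was 0.311 and 0.477. In WB311 plates of the same number did not deviate together. With vehicle Serpini1, an inhibitor of Plat, was higher in WB311 (log2 difference 0.74, limma adjusted p = 2.07e-06) and Lrp1 lower (-0.96, 0.00114). The other 4 of the 6 were not called, beside 28.0% higher and 28.8% lower of all genes tested.

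Of 16 listed genes that relay signals from the receptors, 15 had a probe set, and 9 were tested in WB-F344 and 10 in WB311. Plcb4, a phospholipase C downstream of Gq proteins, rose in WB-F344 by 0.61 on the log2 scale (SE 0.12, limma adjusted p = 0.0027). The other 8 were not called, beside 7.81% called higher and 17.4% lower of all genes tested. By the methods' t-test Plcb4 was not called (adjusted p = 0.12). Arrb2 was under 100 in both WB-F344 groups and so not tested there, at averages of 91.7 with vehicle and 53.8 with rapamycin (log2 difference -0.78). With no filter on intensity, 2 genes of this list were called in WB-F344. None of the 10 was called in WB311, where 1.70% of all genes tested were called higher and 2.05% lower. With vehicle 4 were higher in WB311, among them the arrestins Arrb1 (log2 difference 1.02, limma adjusted p = 1.31e-07) and Arrb2 (0.85, 5.28e-05), and 3 lower, among them Rhoa (-0.81, 8.74e-05), beside 28.0% higher and 28.8% lower of all genes tested. By the methods' t-test 3 of these 7 were called. The median log2 difference with rapamycin in WB-F344 was -0.042 over the coagulation genes tested, -0.022 over the plasminogen genes and 0.031 over the signalling genes.

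**Figure D5:**
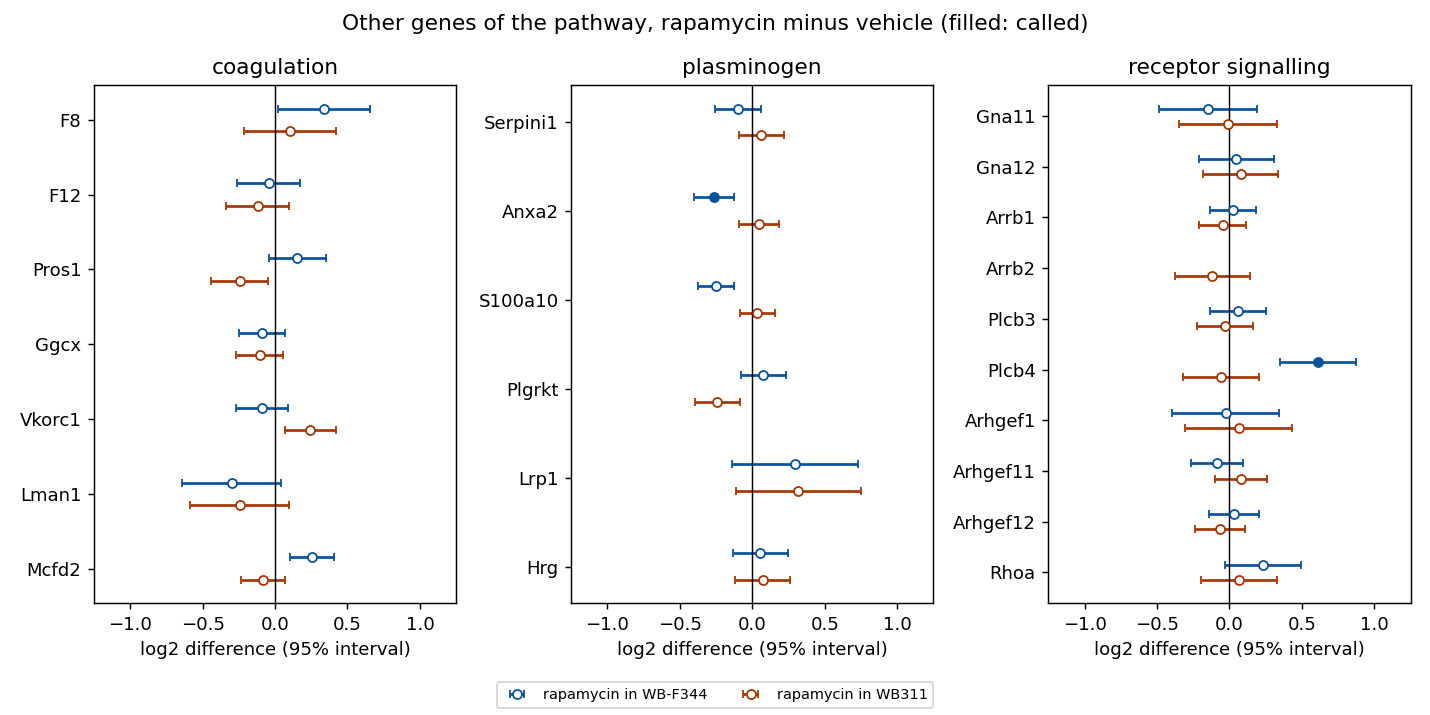
Log2 difference, rapamycin minus vehicle, of the listed coagulation, plasminogen and receptor signalling genes tested in at least 1 line (blue WB-F344, brown WB311; bars 95% intervals from limma; filled points called). Plcb4 (0.61) and Anxa2 (-0.26) in WB-F344 are the filled points.

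The genes whose log2 intensity followed each member most closely over the 12 arrays were Rras2 for F2r (Pearson r = 0.994), Szrd1 for F2rl1 (0.988), Tmem223 for F3 (0.998), Cpq for Tfpi (0.999), Cenpv for Procr (0.996), Imp3 for Plaur (0.994) and Ctnna1 for Plat (0.962). These values describe likeness among 8659 genes, and the 12 arrays behind them share the difference between the lines. Plat, with the smallest vehicle difference between the lines among the members called, had the lowest of these values.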

How the data were processed

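RNA of WB-F344 and WB311 cells, 3 plates per group, was measured on 12 Affymetrix rat expression arrays. The authors deposited intensities on a linear scale, normalized over the arrays with Robust Multiarray Average (RMA), whose software version is not given in the sources used here. Such normalization assumes like distributions on all arrays. All data columns were matched to a sample (0 left over), and 0 array pairs held identical values. Of 31099 probe sets, 57 were controls. Of the other 31042, 20826 had 1 gene symbol in the array annotation, 436 several and 9780 none, with symbols updated through RefSeq on GRCr8.

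The log2 of each intensity was fitted for all probe sets and arrays as 4 groups with limma 3.58.1 in R 4.3.3 (lmFit and eBayes). A probe set was tested if it averaged 100 or more in a compared group, with Benjamini-Hochberg adjustment over all of them and a fold threshold of 1.2. The methods' thresholds were used, and alternatives changed the normalization, the filter, the test, the replicate block and the plates included. The methods applied the fold filter before the correction. Here it was applied after it, also in what is named the methods' t-test, except in the limma alternative with the fold filter first. The code was tested on simulated data. Having 3 arrays per group limits the precision. Named were all probe sets of the 9 members, the 1 gene most correlated with each member over the arrays, and up to 4 called genes per pathway list. The members, lists and motifs were chosen with earlier results of these data known.

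Vehicle and rapamycin plates of WB-F344 that share a number deviated from their group means together, with correlations of 0.561 to 0.871. Plates 1 and 3 also correlated across numbers, at 0.605 and 0.581, so the numbers set apart the plates numbered 2 and not plates 1 from 3. The fit has no block, and the replicate block was an alternative. In WB311 the values were -0.139 to -0.000258.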

Additional observations from a re-analysis of the deposited data

Results flagged for a closer look

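For 3 members limma's test of the difference of the rapamycin effects between the lines (WB311 minus WB-F344, log2) was passed. The difference was -1.29 for Procr, which fell in WB311 and was under 20 on all WB-F344 plates, where its response was not tested. It was -0.926 for Plaur, the urokinase receptor, which rose in WB-F344 and was lower on all 3 rapamycin plates of WB311 without passing the test there. It was -0.359 for Plat, which rose in WB-F344 and overlapped between groups in WB311.

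The same test passed for 5 genes of the pathway lists, and over all genes tested for 7.98% higher and 3.60% lower. The difference was -0.34 for Mcfd2, 0.31 for Anxa2, 0.287 for S100a10, 0.658 for Arrb2 and -0.67 for Plcb4. When each plate was left out in turn, the call was made in 2 of 12 fits for Mcfd2, 1 for Anxa2, 1 for S100a10, 8 for Arrb2 and 6 for Plcb4. Arrb2 averaged 91.7 and 53.8 in the WB-F344 groups, under the threshold of 100. Groups of 3 plates were not tested for outlying plates.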

How the results depend on the processing

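Of 739 recomputed values of the members' probe sets, 702 kept their direction and side of the threshold and 37 did not. Alternatives that changed only the filter, the test, the groups fitted or the block left the log2 difference as it was. So did leaving out a plate outside the groups compared. In these fits only the call could change, so the count of kept directions is no measure of stability. F2r and Plat in WB-F344, Procr in WB311 and the differences of the 7 members between the vehicle groups were called under each alternative run. Plaur, with the largest member difference in WB-F344, was not. The differences of response of Plaur and Plat were the least stable, with 1 member called in place of 3 with no filter on intensity and 1 to 3 when single plates were left out. In WB-F344, 2 to 3 members were called without single plates, and the Plaur call was lost without rapamycin plate 1 or plate 3.

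Over all probe sets, 440 were called with rapamycin in WB311. The count was 289 with no filter, 1140 with only the groups compared, 1112 with the fold filter before the correction, 1019 with the replicate block within lines, 1188 without the WB-F344 plates numbered 2, and 165 to 723 without single plates. In WB-F344 it was 3055, against 1853 with only the groups compared and 1046 by the methods' t-test, and rose to 3584 with the fold filter first, 3885 without the plates numbered 2 and 4033 with the replicate block within lines. For the difference of responses it was 1424, against 2605 with the fold filter first, 2761 with the replicate block within lines and 2527 without the plates numbered 2. The block over both lines by number and the block within lines changed no member call other than that of the second Tfpi probe set. The split of called genes for the difference of responses was 691 higher and 312 lower, and with cyclic loess 598 higher and 497 lower.

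Small differences that were not called changed sign. The brighter Tfpi probe set in WB-F344 was at -0.012 without both plates numbered 2, and between -0.060 and 0.11 without single plates. In fits without single plates the range was -0.25 to 0.082 for the F2rl1 difference of responses. In WB311 it was -0.018 to 0.087 for F2rl1, -0.019 to 0.049 for Plat and -0.050 to 0.00053 for F3. The cause was not tested.

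In each pathway list, 0 to 3 genes were called with rapamycin or for the difference of responses under the alternatives, and Serpinb2, under 100 in all groups, was called in WB311 (-1.62) with no filter. Moderating the variances after the intensity filter was chosen after seeing the data, as were the recomputed pathway lists, and it gave 2993, 463, 1517, 7698 and 8204 called probe sets for the 5 comparisons. The methods' t-test and the fit of only the groups compared were not run for the difference of responses. The block within lines was not run for differences between the lines.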

Other observations

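Serpinb2, an inhibitor of urokinase and Plat, was under 100 in all 4 groups and outside the comparisons. It averaged 52.9 on WB311 vehicle plates and 17.1 with rapamycin, and 11.9 and 12.2 in WB-F344. It was chosen after its values were seen.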
